A study of Mus musculus with 16 samples.

Results

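The comparison described here set regulatory T cells (Treg) of the NOD background against Treg of the C57BL/6 (B6) background. It drew on 8 of the study's 16 arrays, chosen by their labels as the Treg arrays, 4 from NOD and 4 from B6 mice. NOD is an inbred strain that develops autoimmune diabetes spontaneously, and B6 is a strain that does not. All mice were males 6 weeks old and carried a GFP reporter in Foxp3, the gene of the transcription factor that defines Treg. In the first allele, Foxp3-GFP, called fusion here, the Foxp3 protein carries GFP as an attached part, and in the second, Foxp3-IRES-GFP, called ires here, GFP is translated separately and the Foxp3 protein is left as it is. Each strain had 2 fusion and 2 ires arrays, so the controls carried a reporter too and no array came from a mouse without one. Treg were sorted from spleen as CD3+ CD4+ GFP+ cells, at a labelled purity above 99.0%, and GFP- cells of the same lines (conventional T cells, Tconv) were measured on the other 8 arrays. The labels do not say whether the 2 arrays of a line came from separate mice or from pools, nor whether Treg and Tconv came from the same mice, so the p-values reflect only array-to-array spread, some or all of which may be technical.

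Treg restrain other immune cells, and a loss of Foxp3 causes fatal autoimmunity. They depend on IL-2 taken up through the high-affinity receptor, and they act through the inhibitory receptor CTLA-4, through cytokines such as IL-10 and through TGF-beta presented on LRRC32. The NOD strain carries its own MHC haplotype, H2g7, and many further diabetes susceptibility regions, called Idd, some of which lie over immune genes such as Il2 and Ctla4. A strain contrast of this kind therefore compares whole genomes and not a single allele.

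Levels are given as the log2 of the deposited intensity, and a difference is NOD minus B6 on that scale, fitted with the reporter allele as a block, with its standard error (SE). Where 4 values are listed for a strain, they are fusion arrays 1 and 2, then ires arrays 1 and 2. A gene was called when limma's p-value, after Benjamini-Hochberg adjustment across 12489 tested genes, was below 0.05. Array medians lay between 90.5 and 99.0, the SD of the difference between the 2 arrays of a line ran from 0.18 to 0.25, and precision is limited by how few arrays there are. The labelled cell type was checked against its markers: Foxp3 averaged 11.77 in NOD and 11.63 in B6 Treg, against 7.64 and 7.14 in Tconv. In bulk RNA, fewer cells of a type and less RNA per cell cannot be told apart.

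NOD and B6 Treg differed widely, in both directions. Of the 12489 genes, 2343 were called (18.8%), 1202 of them higher in NOD (9.62%) and 1141 lower (9.14%). The median difference over all genes was -0.01, and 4287 genes had an unadjusted p below the same threshold. With each array centred on its own median the same fit called 1454 higher and 711 lower, and with the interquartile range of each array as a covariate 810 higher and 1119 lower, so the balance of directions moved both ways. Differences of at least 2-fold were called for 111 genes (0.889%), 46 higher and 65 lower. The 4 NOD arrays did not overlap the 4 B6 arrays for 2608 genes (20.9%), among them 1834 of the called genes (78.3%). Leaving out fusion B6 array 2 raised the number called to 3856, whereas it fell to 1447 without fusion B6 array 1, to 1480 without ires NOD array 1 and to 1312 without ires B6 array 2.

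Several antiviral and innate immune genes were lower in NOD. Trim12a, a relative of the retrovirus restriction factor TRIM5, gave 10.16, 10.04, 9.96 and 10.09 in B6 and 4.92, 5.79, 5.4 and 5.28 in NOD. The strains did not come near each other, and all 4 NOD values lay below the 40th percentile of all deposited values, log2 6.05, which served as the limit for dim genes. The difference was -4.72 ± 0.14 (adjusted p = 3.98e-13), 26.3-fold as measured. Apobec3, a cytidine deaminase that restricts retroviruses, gave 10.71, 10.77, 10.58 and 10.36 in B6 and 8.52, 8.42, 8.38 and 8.7 in NOD, a difference of -2.1 ± 0.11 (adjusted p = 5.03e-10). Ly6e, an interferon-induced surface protein, fell from a mean of 12.92 ± 0.05 (SD, n = 4) in B6 to 11.07 ± 0.15 in NOD. Eif2ak2, the RNA-sensing kinase PKR, was not among the 12 lowest and read 9.03, 8.53, 8.12 and 8.12 in B6 against 7.28, 7.26, 6.59 and 6.79 in NOD, a difference of -1.47 ± 0.11 (adjusted p = 7.03e-08).

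Because Trim12a, Apobec3 and Eif2ak2 were among the genes of interferon and antiviral lists that fell most and each carries an interferon-type element near its start, their promoters are shown, from 250 bases before to 50 bases after the annotated start. Sequences are RefSeq's for assembly GRCm38.p6, that is, the C57BL/6J reference; the NOD sequence was not examined. Capitals mark GAAANNGAAA on either strand, the core of the interferon-stimulated response element. The windows are chr7:104315446-104315745 on the minus strand for Trim12a, chr15:79892158-79892457 on the plus strand for Apobec3 and chr17:78882523-78882822 on the minus strand for Eif2ak2.
Trim12a: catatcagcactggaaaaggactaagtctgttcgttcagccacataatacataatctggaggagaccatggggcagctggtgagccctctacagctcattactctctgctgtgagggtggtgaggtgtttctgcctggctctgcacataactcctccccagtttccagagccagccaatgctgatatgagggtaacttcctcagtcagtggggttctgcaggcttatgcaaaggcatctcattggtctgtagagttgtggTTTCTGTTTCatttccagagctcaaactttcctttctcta
Apobec3: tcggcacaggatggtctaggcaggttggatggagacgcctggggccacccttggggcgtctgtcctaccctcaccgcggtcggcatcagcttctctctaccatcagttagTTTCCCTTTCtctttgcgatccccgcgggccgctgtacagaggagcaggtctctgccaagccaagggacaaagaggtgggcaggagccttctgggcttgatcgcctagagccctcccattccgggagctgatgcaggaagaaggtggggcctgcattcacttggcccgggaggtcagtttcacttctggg
Eif2ak2: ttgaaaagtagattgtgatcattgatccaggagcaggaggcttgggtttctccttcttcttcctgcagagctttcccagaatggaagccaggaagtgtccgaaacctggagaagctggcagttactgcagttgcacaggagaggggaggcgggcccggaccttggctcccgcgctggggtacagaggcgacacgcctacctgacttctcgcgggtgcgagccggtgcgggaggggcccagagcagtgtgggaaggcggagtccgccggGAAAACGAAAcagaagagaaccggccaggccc
Each window held 1 match, and a second RefSeq start of Apobec3 had none in its window. A match was found in 3.99% of the 27025 genes with a promoter in the table. Among the tested interferon-stimulated genes with a promoter it was found in 17 of 34, and the share was the same among the 12 called lower in NOD and among the 22 not called. In the list of sensor and antiviral genes 42.1% of 19 promoters held it, and 4 of the 6 called lower did. A match describes these letters only and does not show that a factor binds there.

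**Figure D1:**
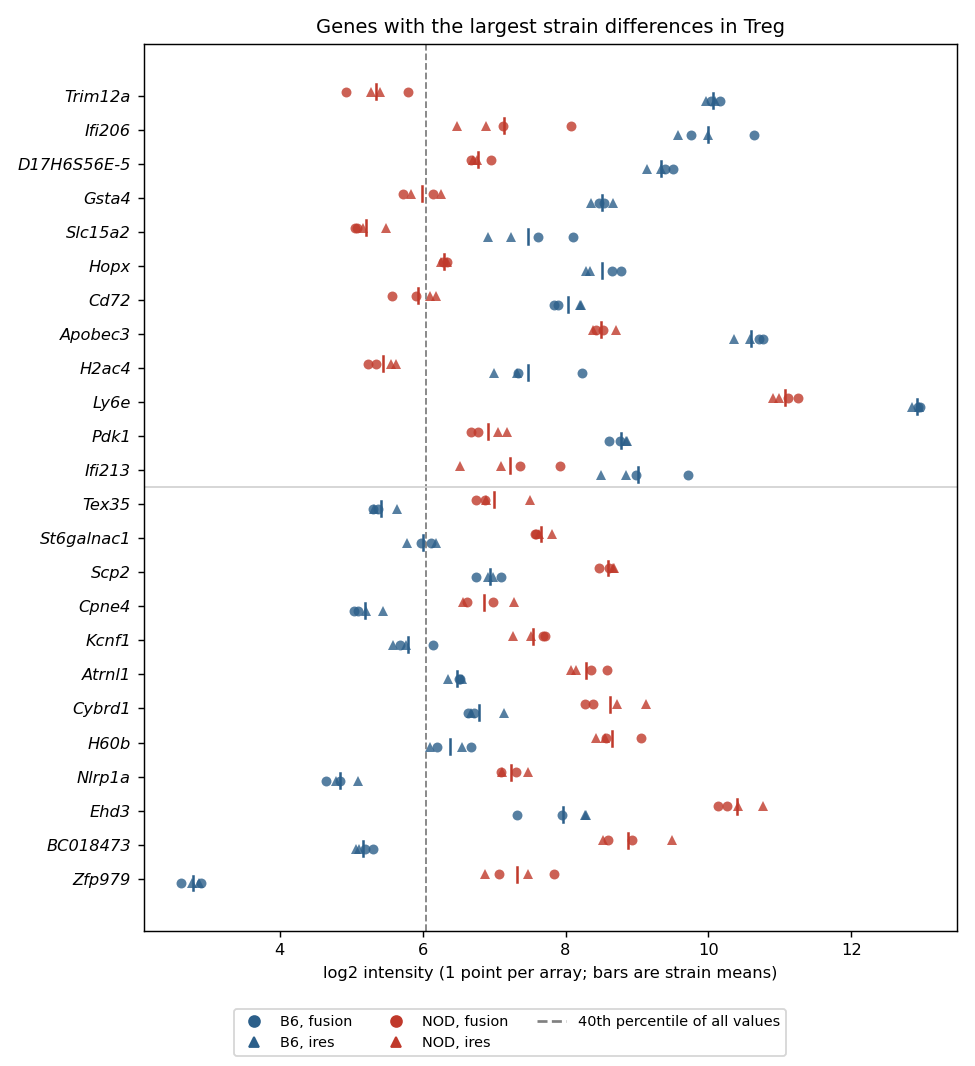
Log2 intensity of the 12 genes lowest in NOD (top) and the 12 highest (bottom) by the naming rule, 1 point per Treg array, with strain means as bars and the dim-gene limit (6.05) dashed. The NOD and B6 points do not overlap for any of these genes, which the naming rule required, and the 4 B6 values of Zfp979 lie between 2.61 and 2.89.

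Other genes at this end had diverse roles. Ifi206, a PYHIN gene of the DNA-sensing family, read 10.64, 9.75, 9.57 and 10 in B6 and 7.13, 8.08, 6.48 and 6.88 in NOD (difference -2.85 ± 0.2, adjusted p = 5.17e-08). Ifi213 of the same family differed by -1.79 ± 0.16. Gsta4, a glutathione transferase that clears lipid peroxidation products, stood at 8.54, 8.47, 8.36 and 8.67 in B6 and at 5.72, 6.15, 6.26 and 5.84 in NOD (difference -2.52 ± 0.12). Hopx, an atypical homeodomain protein expressed in subsets of T cells, averaged 8.51 ± 0.24 in B6 and 6.3 ± 0.04 in NOD (SD, n = 4 each; difference -2.21 ± 0.1, adjusted p = 1.28e-10). The remaining genes of this group were Slc15a2, a peptide transporter (-2.27), Cd72, a lectin-like receptor best known from B cells (-2.1), Pdk1, a kinase that restrains pyruvate dehydrogenase (-1.85), the histone gene H2ac4 (-2.03) and D17H6S56E-5 (-2.57). For these 5 the adjusted p ran from 1.16e-11 for D17H6S56E-5 to 9.16e-07 for H2ac4.

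The highest genes in NOD included several that were near the bottom of the scale in B6. Zfp979, a zinc finger gene, read 2.61, 2.89, 2.87 and 2.77 in B6 and 7.07, 7.84, 6.87 and 7.48 in NOD, a difference of 4.53 ± 0.16 (adjusted p = 4.22e-12). BC018473 rose by 3.71 ± 0.16 from a B6 mean of 5.17, also under the dim-gene limit. Nlrp1a, an inflammasome sensor, gave 4.64, 4.84, 5.1 and 4.78 in B6 and 7.09, 7.3, 7.11 and 7.47 in NOD (difference 2.4 ± 0.11, adjusted p = 1.46e-10). Ehd3, which takes part in endosomal recycling, was above the limit in both strains. It went from 7.32, 7.95, 8.28 and 8.27 in B6 to 10.26, 10.13, 10.77 and 10.42 in NOD (difference 2.44 ± 0.13). H60b, a ligand of the receptor NKG2D, rose by 2.27 ± 0.13, the iron reductase Cybrd1 by 1.83 ± 0.12, the attractin relative Atrnl1 by 1.81 ± 0.1 and Scp2, the sterol carrier protein, by 1.67 ± 0.1. Kcnf1 (1.75), Cpne4 (1.67), the sialyltransferase St6galnac1 (1.63) and Tex35 (1.6) completed this group. The calls for all 24 genes plotted by array held under each alternative in which the gene was tested, 21 for Cpne4 and Tex35 and 22 for the others, with 1 array left out included.

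Of 6 Treg defining genes, 2 were called lower in NOD, 0 higher and 4 not called (33.3% called, against 18.8% of all genes, median -0.19). At an unadjusted p below 0.05 in the same limma fit, 3 were lower and 0 higher. Their summed intensity was 14774 to 16940 in B6 and 12251 to 14116 in NOD, without overlap. Foxp3 read 11.37, 11.59, 11.79 and 11.77 in B6 and 11.47, 11.52, 11.94 and 12.16 in NOD (difference 0.14 ± 0.1, adjusted p = 0.307). Values of Il2ra, the IL-2 receptor alpha chain, differed by -0.17 ± 0.11 (adjusted p = 0.296), those of Ikzf2, the transcription factor Helios, by 0.05 ± 0.09 (adjusted p = 0.706) and those of Tnfrsf18, the receptor GITR, by -0.21 ± 0.09 (adjusted p = 0.102). Quantile normalization brought Foxp3 (adjusted p = 0.00257) and Ikzf2 (adjusted p = 0.0143) under the threshold, both higher in NOD, and Tnfrsf18 passed it with array weights or without fusion B6 array 2. Of 18 tested genes in a list of Foxp3 and its neighbours on the X chromosome, limma called 0 (median 0.03). At an unadjusted p below 0.05, 3 were higher and 1 lower, and under the alternatives up to 4 were called higher and up to 1 lower. The other 2 defining genes fell. Lrrc32, which holds latent TGF-beta on the Treg surface, read 10.98, 11.23, 10.99 and 10.91 in B6 and 9.83, 10.17, 9.75 and 10.2 in NOD, a difference of -1.04 ± 0.11 (adjusted p = 8.85e-06). Ctla4 went from 12.37, 12, 11.58 and 11.66 to 11.43, 11.5, 11.05 and 11.08 (difference -0.63 ± 0.1, adjusted p = 0.000267), with no overlap between the strains.

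All 42 measured genes of a list of 44 Treg core genes passed the filter, and 21 were called lower in NOD and 5 higher (61.9% called, median -0.32, against 18.8% and -0.01 over all genes). Capg, an actin-capping protein, gave 10.69, 10.86, 10.96 and 10.67 in B6 and 9.26, 9.26, 9.4 and 9.14 in NOD, a difference of -1.53 ± 0.1 (adjusted p = 1.31e-08). The protease inhibitor gene Cst7 fell by 1.4 (SE 0.12), from 9.8, 10.09, 9.69 and 10.12 to 8.5, 8.64, 8.68 and 8.3. Both were separated between the strains by more than 1 log2 unit on every array. Ccr4 and Ccr8, chemokine receptors of activated and tissue-seeking Treg, differed by -0.82 ± 0.1 and -0.77 ± 0.12, and the costimulatory receptor gene Tnfrsf9 by -0.72 ± 0.1. The 5 higher genes, Ikzf4, Ikzf1, Dusp4, Gpr83 and Izumo1r, rose by 0.37 to 0.47. The count of higher genes fell to between 1 and 3 without any of 6 arrays, namely fusion B6 array 1, fusion NOD array 2 and each of the 4 ires arrays, whereas the count of lower genes stayed between 18 and 21 with 1 array left out.

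A part of the effector Treg genes was lower too, and several of them varied strongly within B6. Among regulators and products of effector Treg, 28 of 31 measured genes were tested, 12 were lower, 2 higher and 14 not called (50% called, against 18.8% of all genes, median -0.3). Without the allele term 7 were lower. This list shares 8 tested genes with the core list, so the 2 counts are not independent. Klrg1, a receptor of terminally differentiated effector cells, read 10.46, 10.1, 10.09 and 8.65 in B6 and 8.75, 8.55, 8.86 and 8.87 in NOD: 3 of the 4 B6 arrays were high and ires B6 array 2 lay among the NOD values (difference -1.07 ± 0.24, adjusted p = 0.00598). The protease gene Gzmb showed the same array as the lowest of B6, with 9.64, 8.71, 9.35 and 7.58 against 8.17, 7.8, 7.75 and 7.8 in NOD (difference -0.94 ± 0.27, adjusted p = 0.0228). Its call was lost under 5 alternatives, 3 of them an array left out (fusion B6 array 1, fusion NOD array 2 or ires B6 array 1), and with trend and robust variances both Gzmb and Klrg1 missed the threshold (adjusted p = 0.217 and 0.136). For Fgl2, a suppressive secreted protein, and Il10 the B6 values fell by allele. Il10 read 7.12 and 6.62 in fusion B6 but 5.62 and 5.15 in ires B6, against 5.46, 5.76, 4.98 and 4.86 in NOD (difference -0.86 ± 0.16, adjusted p = 0.00125). Only its fusion B6 values lay above the dim-gene limit, so Il10 entered the test through those arrays alone. Fgl2 and Il10 both lost the call without the allele term, at an adjusted p of 0.0768 for Il10 and 0.077 for Fgl2.

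Some markers in the lists for myeloid cells and for NK, CD8 T and gamma-delta T cells were lower in NOD. Summed red cell and dendritic cell markers overlapped between the strains. In the list for NK, CD8 T and gamma-delta T cells, 4 of 7 tested genes were lower and 1, Eomes, was higher (71.4% called, against 18.8% of all genes). The summed intensity of the 20 measured members was 1625 to 2158 in B6 and 1391 to 1550 in NOD. That sum includes Gzmb, which fell most among the tested members (-0.94) and also stands in the core and effector Treg lists. Cd8b1 differed by -0.57 ± 0.1 and Cd8a by -0.5 ± 0.1, while 12 members, the NK cell genes Ncr1 and Klrb1c among them, were below the dim-gene limit on every Treg array. For myeloid cells 5 of 9 tested genes were lower (55.6% called, against 18.8% of all genes), with sums over 21 members of 1153 to 1327 in B6 and 985 to 1112 in NOD. Csf1r, Cd14, Adgre1, Elane, Ly6g, Lyz1, Marco, Ngp and S100a8 were below the limit on every Treg array. The sums include these dim values. Over the 3125 genes with the lowest mean levels the median difference was -0.1, and its part in the sums was not tested. With the filter set at 4 of the 8 arrays, 4 myeloid genes were tested and 2 were lower, and with the filter at the 60th percentile 0 were tested. The myeloid count fell to 3 without fusion B6 array 1, fusion NOD array 2 or ires B6 array 2 and to 2 without ires NOD array 1. Red cell and platelet sums were 546 to 656 in B6 and 573 to 708 in NOD. Markers of CD4 T cells themselves summed to 16340 to 18314 in B6 and 19056 to 20598 in NOD, with 1 of 6 genes, Cd3e, called higher. The summed Treg defining genes, given above, were lower in NOD. The part of these cells in the Treg lists was not tested.

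IL-2 receptor and STAT5 target genes were lower in part. Of 24 tested, 8 fell and 1 rose (37.5% called, against 18.8% of all genes, median -0.15), and 8 of the 24 also stand in the core list. The feedback inhibitors Socs1 and Socs2 each differed by -0.45 ± 0.1 (adjusted p = 0.00504 and 0.00494). Il2rb, the shared beta chain of the IL-2 and IL-15 receptors, gave 12.08, 12.39, 11.95 and 11.9 in B6 and 11.72, 11.78, 11.49 and 11.96 in NOD; the ranges overlapped and the difference of -0.34 ± 0.11 was just past the threshold (adjusted p = 0.0471), with an adjusted p of up to 0.95 under the alternatives. Without the allele term, without fusion B6 array 1 or without ires B6 array 1, 5 genes of the list were lower.

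**Figure D2:**
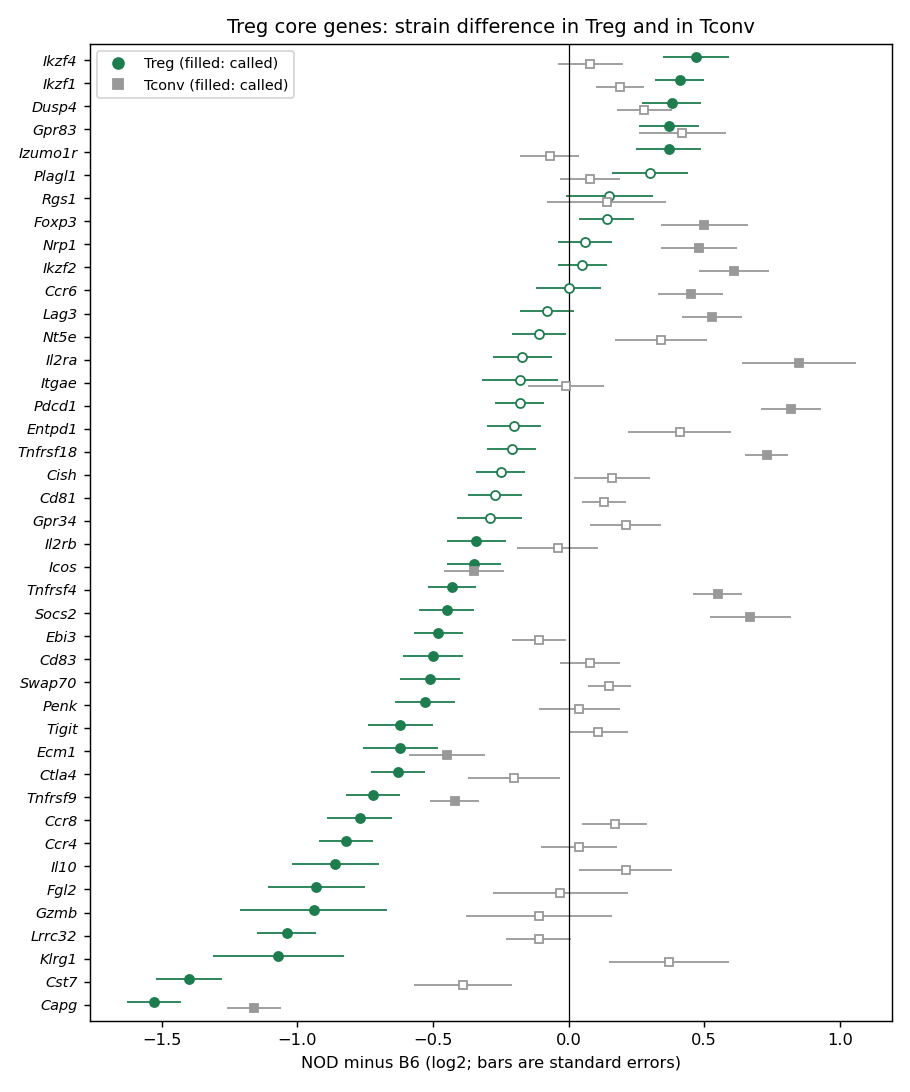
NOD minus B6 difference with its standard error for the 42 tested Treg core genes, in Treg (circles) and in Tconv (squares), with filled symbols for called genes. In Treg 21 are called lower and 5 higher, in Tconv 4 lower and 10 higher.

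The strain difference was also measured in Tconv, where 2002 genes were called (16%), 1201 higher (9.62%) and 801 lower (6.41%). Of the 2343 genes called in Treg, 2144 (91.5%) had the same sign in Tconv, and 940 were called there with the same sign, which is 40.1% of the Treg calls and 47% of the Tconv calls, while 10 were called with the opposite sign. Among the 111 genes with a called 2-fold difference in Treg, 91 (82%) were called with the same sign in Tconv. A test of the difference itself, the strain effect in Treg minus that in Tconv over all 16 arrays, called 99 genes (0.793%), 29 with the greater value in Treg and 70 with the lesser, and 75 of them were called in Treg. Without fusion B6 array 1 of Tconv it called 64.

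The Treg core list gave 10 higher and 4 lower genes in Tconv, with a median of 0.14, opposite in sign to the median in Treg, and for 11 of its 42 genes the difference between the cell types was called. Lrrc32 differed by -0.11 ± 0.12 in Tconv, near the dim-gene limit there, so the strain effect was lower in Treg by 0.93 (SE 0.17, adjusted p = 0.00687). Tnfrsf18 rose by 0.73 ± 0.08 in NOD Tconv against the -0.21 in Treg (difference of effects -0.94 ± 0.12, adjusted p = 0.000312). Ccr8 was dim in Tconv of both strains, at 5.8 and 5.62, and its effects differed by -0.94 ± 0.17 (adjusted p = 0.00638). These 3 calls held in all 20 alternatives of this test, whereas those for Ccr4 (-0.86, adjusted p = 0.0427), Klrg1 (-1.44, adjusted p = 0.0316) and Il10 (-1.07, adjusted p = 0.0397) were lost in 10 to 15 of the 20. Foxp3 itself was called higher in NOD Tconv (0.5 ± 0.16, adjusted p = 0.0387), as were Il2ra (0.85 ± 0.21, adjusted p = 0.0142) and Ikzf2 (0.61 ± 0.13, adjusted p = 0.00397), at levels far below those of Treg, and for these 3 genes the difference between the cell types was not called (adjusted p = 0.677, 0.174 and 0.216).

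Outside the core list, strain effects were also unequal for Gsta4, Cd74, Cybrd1, Hopx and St6galnac2. For Cd74 the effects differed by -1.85 (adjusted p = 0.0366), a call lost in 9 of 20 alternatives. Gsta4 stood at 5.95 in NOD and 6.02 in B6 Tconv, where the fit gave -0.06 (adjusted p = 0.725), against -2.52 in Treg (difference of effects -2.46 ± 0.17, adjusted p = 1.26e-07). Cybrd1 was equally dim in both Tconv groups, at 5.97 and 5.96, and its effects differed by 1.82 ± 0.18 (adjusted p = 2.14e-05). Hopx differed by -0.56 in Tconv (SE 0.11), against -2.21 in Treg (difference of effects -1.66 ± 0.16, adjusted p = 1.26e-05). St6galnac2 went the other way, with a rise of 1.08 ± 0.12 in Treg that was smaller than the rise in Tconv by 1.49 (SE 0.2, adjusted p = 0.000626). Atrnl1 and Tex35 both had effects greater in Treg by 1.43 (adjusted p = 7.69e-06 and 0.000198), and Ehd3 by 1.28 ± 0.16. Apart from that for Cd74, these calls held in all 20 alternatives. For Trim12a, Ifi206, Ly6e and Zfp979 the difference between the cell types was not called, and the strain differences in Tconv were -5.48, -2.67, -1.75 and 4.64.

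Within the reporter alleles, which rest on 2 against 2 arrays each, 702 genes were called in fusion Treg (5.62%; 248 higher, 454 lower) and 1799 in ires Treg (14.4%; 979 higher, 820 lower). The log2 interquartile range was 2.75 and 2.82 on the ires B6 arrays but 2.98 and 3.06 on the ires NOD arrays, without overlap. On the fusion arrays it was 2.8 and 3.07 in B6 and 2.83 and 3.02 in NOD. Once arrays were centred on their medians, 1688 of the ires calls lay above B6 and 406 below (median difference 0.1). For fusion the same centring left 243 above and 423 below. How far array scale shaped the ires count was not tested. The fusion and ires contrasts use different arrays. In both, 499 genes were called with the same sign, which is 71.1% of the fusion calls and 27.7% of the ires calls, and 2 genes were called with opposite signs. With 1 array left out, the ires count ran from 455 (without ires B6 array 2) to 2199, with 683 without ires B6 array 1, 944 without ires NOD array 1 and 744 without ires NOD array 2. The fusion count fell to 418 without fusion B6 array 1 and otherwise lay between 478 and 760.

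The strain difference differed between the fusion and ires lines for 7 genes by the interaction test (0.056%). Allele and mouse line go together in these data, so their effects cannot be told apart. Kcnma1, a calcium-activated potassium channel, was high on the 2 fusion NOD arrays alone, at 10.45 and 9.55, against 3.93 to 4.64 on the other 6 (difference of effects, ires minus fusion, -5.78 ± 0.3, adjusted p = 1.56e-09). Ctse, the endosomal protease cathepsin E, was high on the 2 fusion B6 arrays, at 11.49 and 11.68, against 8.19 to 8.72 elsewhere (3.37 ± 0.21, adjusted p = 1.71e-08). Cd55, an inhibitor of complement, read 8.34 and 8.61 in fusion B6 and 6.55 and 6.72 in ires B6, so that NOD was lower by 1.3 with fusion and higher by 0.85 with ires (adjusted p = 5.99e-05 for the difference). For Kcnma1 and Ctse 1 line stood apart from the other lines. The remaining 4 were Desi1 (1.44 ± 0.22), AI506816 (1.33 ± 0.19), Snrpe (1.31 ± 0.22) and Lad1 (-1.19 ± 0.19). Calls for Kcnma1, Ctse and Cd55 held in all 13 alternatives, and those for the other 4 were each lost in 2 to 6 of them. Leaving out fusion NOD array 2 raised the number of interaction calls to 27, leaving out ires NOD array 1 raised it to 17, and it fell to 4 and 3 without fusion B6 array 1 and 2. The strain differences with fusion and ires were -4.75 and -4.69 for Trim12a and 4.7 and 4.35 for Zfp979.

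**Figure D3:**
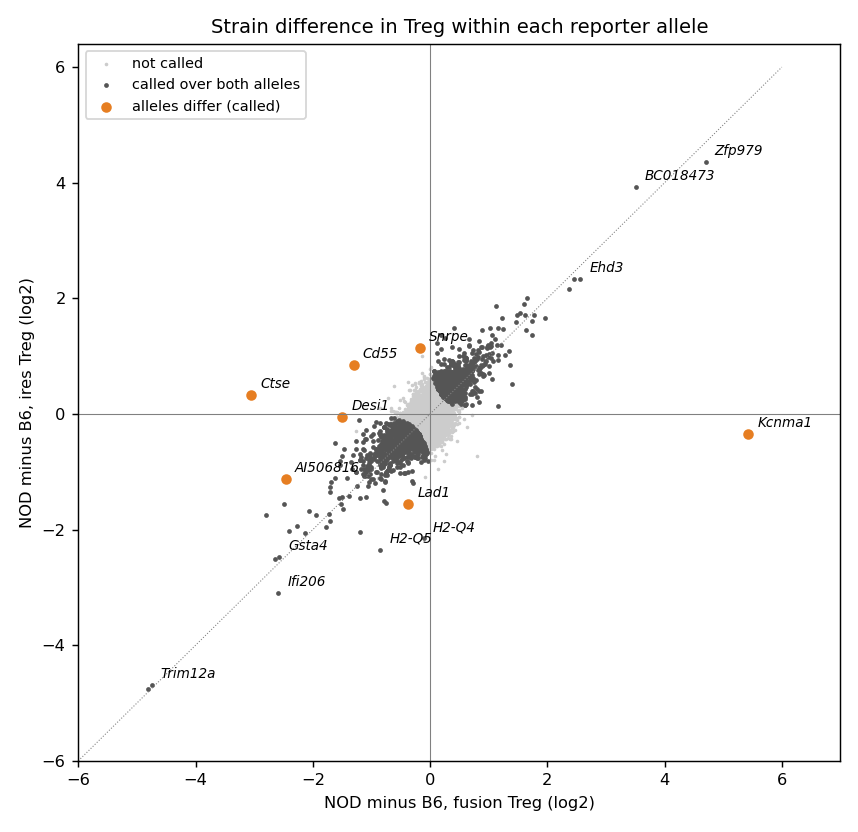
NOD minus B6 difference in fusion Treg (x axis, log2) against that in ires Treg (y axis, log2) for the 12489 tested genes, with genes called over both alleles in dark grey and the 7 genes with a called difference between fusion and ires lines in orange. Trim12a, Zfp979 and BC018473 lie near the dotted line of equal effects, and Kcnma1 (5.43 with fusion, -0.35 with ires) lies farthest from it.

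Many antigen presentation genes were lower in NOD. Among MHC class I and antigen processing genes, 24 of 27 measured members were tested, 10 were lower and 1, Cd1d1, was higher (45.8% called, against 18.8% of all genes, median -0.22). Without either ires B6 array 6 were lower. Psmb9 and Psmb8, subunits of the immunoproteasome, differed by -0.72 ± 0.12 and -0.57 ± 0.11, and the nonclassical gene H2-T24 by -0.81 ± 0.1, with no overlap between the strains for any of the 3. H2-Q5 read 10.01, 10.52, 10.16 and 10 in B6 and 9.3, 9.52, 7.15 and 8.32 in NOD (difference -1.6 ± 0.26, adjusted p = 0.000365). H2-Q4 was low only on the 2 ires NOD arrays, at 8.16 and 10.04, while fusion NOD gave 11.44 and 11.24, within the B6 range of 11.21 to 11.54 (difference -1.13 ± 0.35, adjusted p = 0.0341). Its call was lost under 6 alternatives, that of H2-Q5 with trend and robust variances (adjusted p = 0.0587). B2m, the light chain of class I, gave 13.5, 13.53, 13.36 and 13.45 in B6 and 13.21, 13.29, 12.42 and 13.13 in NOD, with ires NOD array 1 the lowest. Its difference of -0.45 ± 0.13 (adjusted p = 0.0242) missed the threshold without that array (adjusted p = 0.0996), and under 5 other alternatives. The classical genes H2-K1 and H2-D1 share probe sets with other genes and are not reported.

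For MHC class II and its loading, 5 of 7 tested genes were lower (71.4% called, against 18.8% of all genes, median -0.51). H2-Ob, a subunit of the regulator H2-O, differed by -1.05 ± 0.11 (adjusted p = 3.84e-06), Cd74, the invariant chain, by -1.01 ± 0.17, H2-DMa by -0.55 ± 0.13, H2-Oa by -0.51 ± 0.13 and H2-Ab1, the class II beta chain, by -0.41 ± 0.1. The call for H2-Oa was lost without ires B6 array 1 or ires NOD array 1 (adjusted p up to 0.0595), and that for H2-Ab1 with all 16 arrays in the fit and without fusion B6 array 1 or fusion NOD array 2 (adjusted p up to 0.0626). Cd74 read 7.66, 8.63, 7.69 and 7.45 in B6 and 7.02, 6.65, 6.77 and 6.94 in NOD, with fusion B6 array 2 the highest. H2-Ab1 was dim throughout, between 5.43 and 6.19. Mouse T cells are known to make little class II, so markers of the cells that make much of it are given beside these values. Of the dendritic cell markers 3 of 8 tested were lower and 1 higher (50% called, median -0.21). Of the B cell markers 2 of 6 were lower (33.3% called, median -0.18). Dendritic cell sums, which include Cd74 and H2-Ab1, were 2276 to 2697 in B6 and 2463 to 2783 in NOD, with Itgax, Clec9a and Siglech below the limit on every Treg array. B cell sums were 1539 to 1703 in B6 and 1474 to 1681 in NOD, with Ms4a1, Cd79a and Pax5 below it on every Treg array. The part of such cells in the class II values was not tested.

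Several of these genes lie side by side on the chromosome. By the gene order of the reference, 14 stretches of at least 4 adjacent tested genes were called in the same direction, 9 higher and 5 lower in NOD. In the MHC, a stretch of 7 was lower: H2-DMa, Psmb9, Tap1, Psmb8, Tap2, H2-Ob and H2-Ab1, the last with a call that 3 alternatives lost. The peptide transporter genes Tap1 and Tap2 differed by -0.49 ± 0.12 and -0.46 ± 0.1, and the call for Tap1 was lost under 6 alternatives. A second stretch of 5 held the PYHIN genes Ifi206, Ifi214, Ifi213, Ifi209 and Ifi208, with differences from -0.69 to -2.85. Another held 6 GTPases of immunity that regulate lymphocyte survival, Gimap4, Gimap6, Gimap7, Gimap1, Gimap5 and Gimap3. Gimap7 read 10.94, 11.17, 10.55 and 10.61 in B6 and 10.21, 10.17, 9.76 and 9.76 in NOD (difference -0.84 ± 0.09, adjusted p = 6.05e-06), Gimap4 differed by -0.82 ± 0.11, and Gimap5 by -0.55 ± 0.13. On the higher side, Snhg16, St6galnac2, BC018473 and St6galnac1 formed a stretch of 4 with differences from 0.75 to 3.71. Of the genes in these 4 stretches, the difference between Treg and Tconv was called for St6galnac2 and for H2-Ob, where the decrease was larger in Tconv by 0.69 (SE 0.15, adjusted p = 0.0297, lost in 10 of 20 alternatives).

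**Figure D4:**
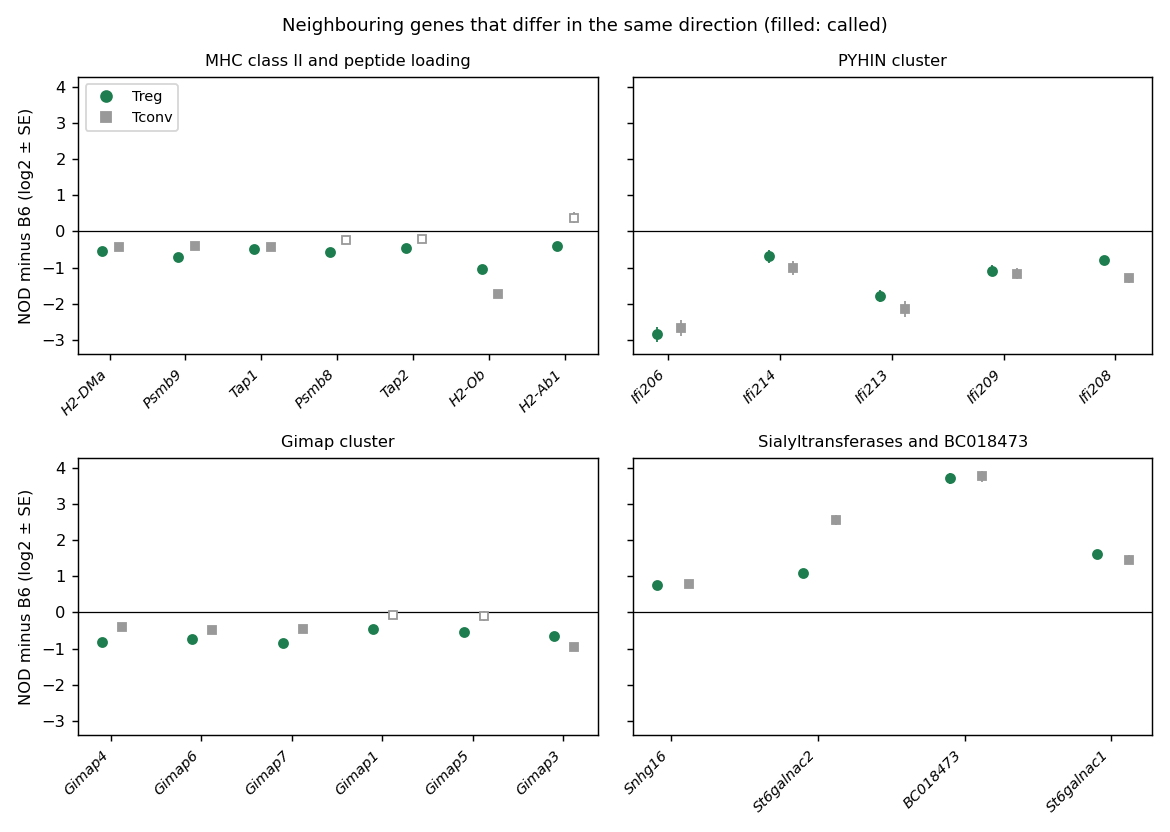
NOD minus B6 difference with its standard error in Treg (circles) and Tconv (squares) for 4 stretches of adjacent tested genes, each drawn in gene order, with filled symbols for called genes. All Treg symbols are filled, since the stretches were chosen for that; 3 stretches are lower in NOD, and the one with BC018473 is higher, by up to 3.71.

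Over a part of the interferon-stimulated genes NOD Treg were lower. Of 47 tested genes, 17 fell and 0 rose (36.2% called, against 18.8% of all genes, median -0.2). At an unadjusted p below 0.05 in the same limma fit, 22 were lower and 0 higher, and quantile normalization called 1 higher. The number lower was 12 to 24 when 1 array was left out, and 31 with array weights. Besides Ly6e and Eif2ak2, the antiviral synthetase gene Oas3 (-0.68 ± 0.13), the exonuclease gene Isg20 (-0.68 ± 0.12), Ifi27l2a (-0.81 ± 0.15) and Usp18, which removes ISG15 from proteins (-0.79 ± 0.18), fell. Usp18 read 9.46, 8.36, 8.51 and 9.21 in B6 and 8.22, 8.24, 7.88 and 8.05 in NOD, so the spread within B6 was wide, and its call was lost with trend and robust variances (adjusted p = 0.105) and with the interquartile range of each array as a covariate. In Tconv 5 of the 47 were called lower (median -0.12), where 6.41% of all genes were. The difference between the cell types was called for 0 of the 47.

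The list of inflammasome sensors and of TRIM, PYHIN and APOBEC genes had 22 tested of 32 measured members, with 6 lower and 4 higher (45.5% called, against 18.8% of all genes). Trim30d (-0.77 ± 0.13) and Trim12c (-0.68 ± 0.09), 2 further TRIM genes, and Ifi209 (-1.09 ± 0.15) were lower. The higher ones were inflammasome genes: Nlrp1a, described above, the DNA sensor gene Aim2 (0.64 ± 0.11, adjusted p = 0.000463) and the inflammatory caspase genes Casp1 (0.63 ± 0.15, adjusted p = 0.00881) and Casp4 (0.44 ± 0.14, adjusted p = 0.0356). Aim2 gave 7.97, 8.2, 7.71 and 7.6 in B6 and 8.43, 8.67, 8.4 and 8.56 in NOD, without overlap. Casp4 overlapped between the strains and reached an adjusted p of 0.156 under the alternatives.

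Most cell cycle genes tested were lower. Of 35 tested, 24 were lower in NOD and 1, the cyclin gene Ccnd3, was higher (71.4% called, against 18.8% of all genes, median -0.43). The call for Ccnd3 was lost under 4 alternatives, with an adjusted p of up to 0.0854, and the number lower ran from 16, without fusion NOD array 2, to 23 with 1 array left out. Top2a, the topoisomerase of dividing cells, read 8.89, 9.1, 8.2 and 8.27 in B6 and 8.03, 7.88, 7.24 and 7.54 in NOD (difference -0.94 ± 0.1, adjusted p = 6.09e-06). Within each allele NOD was below B6. The spindle checkpoint kinase gene Bub1b differed by -0.99 ± 0.14, the spindle assembly gene Tpx2 by -0.89 ± 0.13, the ribonucleotide reductase gene Rrm2 by -0.87 ± 0.11, the mitotic motor gene Kif11 by -0.82 ± 0.12 and Aurkb, the chromosomal passenger kinase, by -0.72 ± 0.13. In Tconv 8 of the 35 were lower and 1 higher (median -0.19), where 6.41% of all genes were lower and 9.62% higher. The difference between the cell types was called for 0 of the 35.

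Metabolic and redox genes moved both ways. In a list of glycolysis, hypoxia and mitochondrial redox genes, 48 of 50 measured members were tested, 22 were lower and 6 higher (58.3% called, against 18.8% of all genes, median -0.2). The number higher fell to 2 or 3 without fusion B6 array 1, fusion NOD array 2, ires B6 array 1 or ires NOD array 1. Txn1, thioredoxin, differed by -0.84 ± 0.13 (adjusted p = 0.000195), Gsto1, a glutathione transferase, by -0.76 ± 0.11 and Prdx2, a peroxiredoxin, by -0.72 ± 0.13. Pdk1, described above, was the lowest of the list. Egln3, the prolyl hydroxylase that marks HIF for degradation, rose by 0.66 ± 0.11 (adjusted p = 0.000372). Gsto1 fell more in Treg than in Tconv, by 0.81 (SE 0.15, adjusted p = 0.0125).

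T cell receptor and costimulation genes leaned the other way, with 10 of 42 higher in NOD and 1 lower (26.2% called, against 18.8% of all genes, median 0.11). Without ires B6 array 2 the number higher was 5, without fusion NOD array 2 it was 6, and quantile normalization raised it to 23. With the interquartile range of each array as a covariate 7 were higher and 2 lower (median 0.04). Cd3e, a chain of the receptor complex, gave 11.18, 11.28, 11.15 and 11.14 in B6 and 11.69, 11.58, 11.68 and 11.84 in NOD (difference 0.51 ± 0.09, adjusted p = 0.00105). Themis, an adaptor of the receptor, rose by 0.5 ± 0.11, the paracaspase gene Malt1 by 0.49 ± 0.09, the Tec-family kinase gene Txk by 0.46 ± 0.09 and Dgka, which attenuates diacylglycerol signals, by 0.39 ± 0.09. The single lower gene was the adaptor Sh2d2a (-0.39 ± 0.1). Ptpn22, a phosphatase linked to autoimmunity in humans, read 9.29 to 9.69 in B6 and 9.36 to 9.58 in NOD (difference -0.03 ± 0.1, adjusted p = 0.87).

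Among immediate-early genes, 6 of 32 were lower and 1 higher (21.9% called, near the 18.8% of all genes, median -0.14), with 3 lower without fusion B6 array 1. Dusp5, a phosphatase of ERK, differed by -0.63 ± 0.11 and the orphan receptor Nr4a2 by -0.42 ± 0.09. The single higher gene was Dusp6, another ERK phosphatase (0.45 ± 0.13), whose call was lost under 4 alternatives. In the list of naive and central T cell genes 8 of 21 were higher and 4 lower (57.1% called, against 18.8% of all genes, median 0.21). Without any of 6 arrays the number higher fell to between 1 and 5. Il6ra, a receptor chain of naive T cells, rose by 0.53 ± 0.1 (adjusted p = 0.00137), whereas Nsg2 fell by 1.73 (SE 0.09), from 9.37, 9.44, 9.67 and 9.71 to 7.63, 7.73, 7.87 and 8.05. The egress receptor S1pr1 (0.41 ± 0.1) and the transcription factor Foxo1 (0.4 ± 0.11) were called higher, but S1pr1 missed the threshold without fusion B6 array 1 (adjusted p = 0.0588) and Foxo1 under 4 alternatives.

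Chemokine receptors, integrins and homing receptors were divided, with 5 of 32 higher and 5 lower (31.2% called, against 18.8% of all genes, median -0.07). There were 3 higher without fusion B6 array 1 and 3 lower without ires B6 array 1 or ires NOD array 2. Itgb1, the beta 1 integrin chain, gave 10.56, 10.74, 10.1 and 10.29 in B6 and 11.35, 11.38, 11.27 and 11.23 in NOD (difference 0.89 ± 0.1, adjusted p = 1.07e-05). Cd44, the hyaluronan receptor of activated T cells, rose by 0.62 ± 0.1. Itgb3, the beta 3 chain, fell by 0.97 (SE 0.09, adjusted p = 1.27e-06), which exceeded the change in Tconv by 0.62 (SE 0.12, adjusted p = 0.0185, lost in 4 of 20 alternatives). Among cytokines and helper lineage regulators 6 of 27 were higher and 2 lower (29.6% called, against 18.8% of all genes, median 0.01). There were 4 lower without fusion B6 array 2, and without the allele term the 2 were no longer called. Il18r1, a chain of the IL-18 receptor, read 7.44, 7.53, 7.78 and 7.65 in B6 and 8.78, 9.13, 9.32 and 9.28 in NOD (difference 1.53 ± 0.1, adjusted p = 1.2e-08), and its effect was greater in Treg than in Tconv by 1.04 ± 0.16 (adjusted p = 0.00206). The CD40 ligand gene Cd40lg rose by 0.81 ± 0.15, and the T-box factor gene Eomes by 0.63 ± 0.12.

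Of the candidate genes of Idd regions, 26 of 34 measured were tested, 10 were lower and 3 higher (50% called, against 18.8% of all genes, median -0.2). There were 6 lower without the allele term and at most 1 higher without ires B6 array 2 or ires NOD array 2. Acadl, a dehydrogenase of fatty acid oxidation, differed by -1.27 ± 0.1 (adjusted p = 2.39e-07), the TNF receptor gene Tnfrsf1b by -0.53 ± 0.09 and Cd101, a surface receptor of Treg, by -0.46 ± 0.13, the last losing its call under 4 alternatives. Tnfrsf9, Ctla4, Il10, B2m and H2-Ab1 stand in this list too. In the SLAM family of adhesion and signalling receptors, 8 of 12 measured genes were tested, Cd48 was lower (-0.55 ± 0.1) and Slamf6 higher (0.4 ± 0.09), so 25% were called, against 18.8% of all genes. Cell death and survival genes gave 6 lower and 1 higher of 27 (25.9% called, against 18.8% of all genes, median -0.03 against -0.01), and with each array centred on its median 3 were lower. The necroptosis kinase gene Ripk3 (-0.5 ± 0.09), the BH3-only gene Bmf (-0.48 ± 0.11) and the survivin gene Birc5 (-0.67 ± 0.1), which also serves cell division, were lower.

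**Figure D5:**
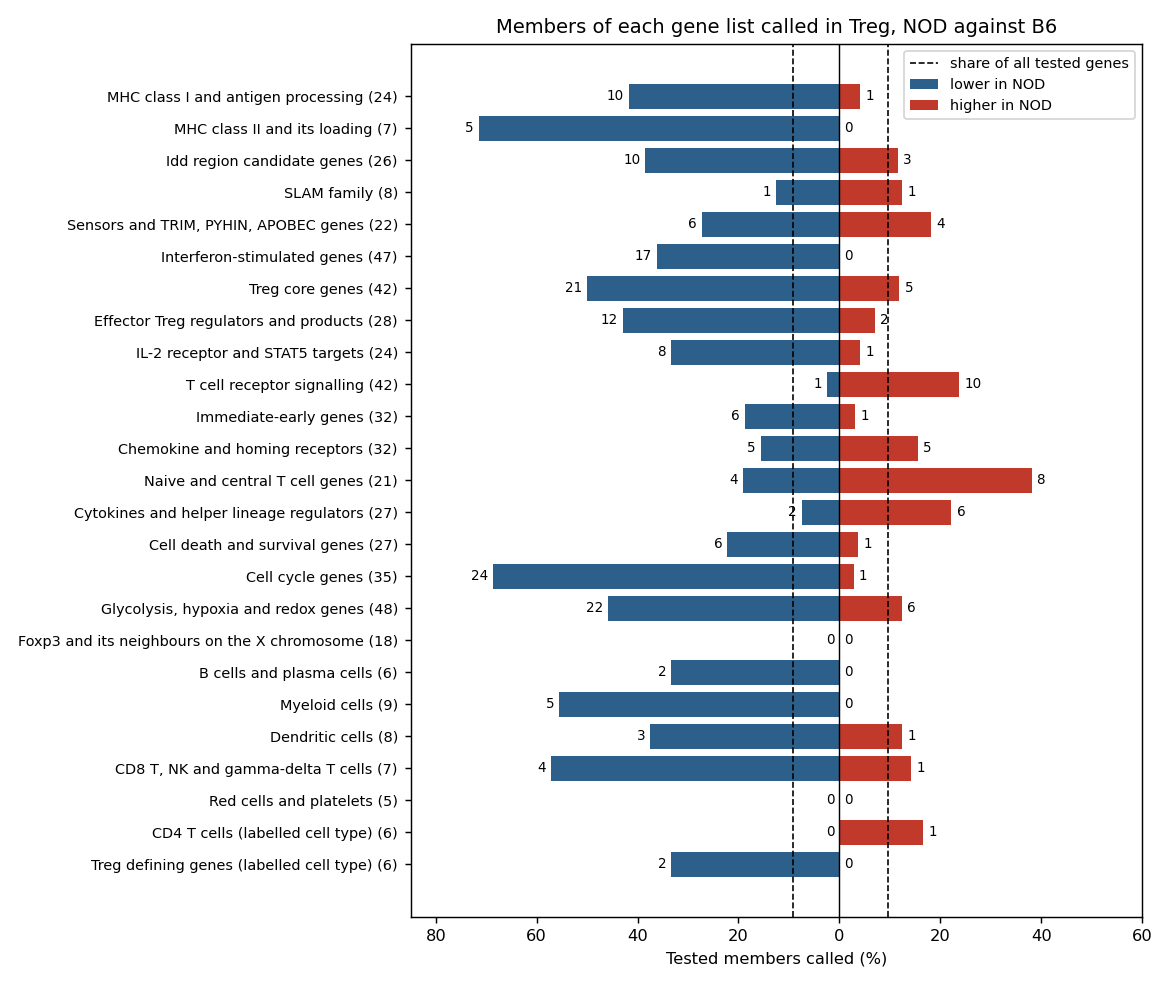
Share of tested members called lower (left) and higher (right) in NOD Treg for 25 gene lists, with the number tested in parentheses, counts at the bar ends and the shares over all tested genes (9.14% lower, 9.62% higher) dashed. Cell cycle (24 of 35), MHC class II (5 of 7) and Treg core genes (21 of 42) have long bars to the left, and T cell receptor (10 of 42) and naive genes (8 of 21) to the right.

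All mice were labelled male, and 3 of the 4 tested Y-linked genes were called higher in NOD (75% called, against 18.8% of all genes). Values of these 3 did not overlap between the strains, as for 20.9% of all genes. The other tested gene was not called (-0.22) but was lower at an unadjusted p below 0.05 in the same limma fit. Kdm5d differed by 0.63 ± 0.11, Eif2s3y by 0.46 ± 0.11 and Uty by 0.41 ± 0.1.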

How the data were processed

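RNA of 16 sorted T cell samples was hybridised to Affymetrix arrays. The authors used RMA in Affymetrix Power Tools, per the submitters' processing notes. What they deposited is 1 linear intensity per probe set and array. For software versions and the genome build, the answer is: not given in the sources used here.

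Intensities were turned into log2 values with no pseudocount or further scaling. Of 25108 probe sets, the platform annotation paired 21157 with a single gene, 1341 with several and 2610 with none; 21074 of the 21157 matched RefSeq by Entrez ID. They covered 19531 genes, 906 with more than 1 probe set, of which the one with the highest mean over the 16 arrays was used. Genes brighter than the 40th percentile on at least 2 of the 8 Treg arrays were tested, which left 12489. A gene can pass through the strain where it is high. Strain differences in sequence under the arrays' probes were not examined, so they and differences in RNA level cannot be told apart.

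The fit was limma 3.58.1 in R 4.3.3 with background and allele (5 residual and 11.7 prior degrees of freedom), two-sided. Alleles and their interaction were fitted with 4 group means on the 8 arrays, and Treg against Tconv with 8 group means on 16. The script was tested on simulated data. Tables and plots used Python 3.11.15, pandas 2.3.3, numpy 2.4.6 and matplotlib 3.10.9.

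The gene lists, their members and the comparisons were chosen with earlier results of these data known. The text names the 12 largest and 12 smallest called differences that kept their sign in both alleles without overlap, up to 6 called genes per list, 10 fixed genes (Foxp3, Il2ra, Ctla4, Ikzf2, Il2rb, B2m, H2-K1, H2-D1, Il2 and Ptpn22), and up to 8 each with a called interaction or a called difference between cell types. Of the fixed genes, no values are given for Il2, H2-K1 and H2-D1. Provisional symbols (Gm and Rik names, LOC, Mir and Snor) and antigen receptor segments were counted only. Tnfrsf18, Ikzf4, Ikzf1, Dusp4, Gpr83, Izumo1r, Cd1d1, Tap2, Aim2, Casp1, Casp4, the Gimap genes, Snhg16, Ifi208 and Ifi214 stand outside the rule and were named after their values were seen. Alternatives covered the filter, scaling, variances, array weights, probe sets, arrays and terms in the fit, a replicate block and each array left out.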

Additional observations from a re-analysis of the deposited data

Results flagged for a closer look

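A single array stood far from the other 3 of its strain for 11 of the 260 groups of 4 Treg arrays examined, over the genes named here. Chance alone gives about 1 in 20 groups. On fusion B6 array 2, Desi1 read 8.93 (others 8.66 to 8.68), Dgka 12.34 (12.12 to 12.15), Cd1d1 8.27 (8.45 to 8.48), Nr4a2 6.16 (6.37 to 6.41) and Cd8a 6.45 (6.78 to 6.82). On fusion B6 array 1, Themis read 7.75 (8.16 to 8.23) and Ccnd3 8.99 (9.34 to 9.41). On ires NOD array 1, Tpx2 read 6.03 (6.55 to 6.63) and Txk 10.12 (10.26 to 10.28). Prdx2 on ires NOD array 2 read 9.54 (9.02 to 9.09), and Gzmb on fusion NOD array 1 read 8.17 (7.75 to 7.8).

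The strain difference differed between the fusion and ires lines, where allele and line cannot be told apart, by the interaction term of limma for 7 genes. Given as ires minus fusion, these were Kcnma1 (-5.78), Ctse (3.37), Cd55 (2.15), Desi1 (1.44), AI506816 (1.33), Snrpe (1.31) and Lad1 (-1.19).

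The strain difference depended on the cell type, by the difference between the effects in Treg and Tconv, for 24 of the genes named. Lower in Treg were Gsta4 (-2.46), Cd74 (-1.85), Hopx (-1.66), St6galnac2 (-1.49), Klrg1 (-1.44), Nsg2 (-1.24), D17H6S56E-5 (-1.23), Socs2 (-1.12), Il10 (-1.07), Tnfrsf18 (-0.94), Ccr8 (-0.94), Lrrc32 (-0.93), Ccr4 (-0.86), Gsto1 (-0.81) and Itgb3 (-0.62). Higher in Treg were Cybrd1 (1.82), Atrnl1 (1.43), Tex35 (1.43), Ehd3 (1.28), Kcnf1 (1.16), Il18r1 (1.04), Eomes (0.99), Scp2 (0.88) and H2-Ob (0.69). Of these 24, the calls for Cd74, Klrg1, Socs2, Il10, Ccr4, Itgb3, Eomes and H2-Ob were lost in at least 1 of the 20 alternatives.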

How the results depend on the processing

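The number of genes called between NOD and B6 Treg, 2343, lay between 1929 and 2807 under 13 alternatives, stayed within 1.5 times the reported count and was 5546 with array weights. The value of 1929 came with the interquartile range of each array as a covariate, an alternative chosen after seeing the data, as were the counts of gene lists under the alternatives. As reported 1141 of the 2343 were lower, and 711 of 2165 (32.8%) were when arrays were centred on their medians, against 1119 of 1929 (58%) with that covariate and 778 of 1447 (53.8%) without fusion B6 array 1. With 1 array left out the count ran from 1312 to 3856. Within fusion it ran from 418 to 760, within ires from 455 to 2199, for the interaction from 3 to 27 (14 with median centring), and for Treg minus Tconv from 64 to 136 (151 with the replicate block). The replicate block, the array number within each allele, gave 2644 calls over both alleles, 860 in fusion, 2487 in ires and 8 interactions. Deviations of same-numbered arrays correlated between -0.0168 and 0.34, and array 2 had the wider log2 interquartile range in every line. The main fit did not take the numbers as a pairing, and whether they mark a shared effect was not tested. No called difference of a named gene changed sign under the alternatives run. Uncalled differences did for Il2ra (-0.25 to 0.09), Ptpn22 (-0.09 to 0.06) and Cd55 (-0.67 to 0.09). Medians crossed 0 for the lists of cell death (-0.07 to 0.03), SLAM (-0.05 to 0.13), cytokine (-0.02 to 0.08), Foxp3 neighbour (-0.02 to 0.12), red cell (-0.15 to 0.11) and Treg defining genes (-0.22 to 0.01). Among values for single genes, 183 missed the threshold under an alternative, 10 newly passed it and 3222 kept their side of it. Signal over background limits dim genes: over the 3125 genes with the lowest mean levels the median difference was -0.1, against 0.05 over the 3117 with the highest.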

Other observations

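Several gene groups outside the lists above were lower in NOD Treg. They were chosen after their values were seen, so they are described without a test, and 18.8% of all genes tested were called. Of 58 tested genes of cytosolic ribosomal proteins, 37 were called lower and 1 higher (median -0.4). Their median log2 level was 11.86, 11.78, 11.8 and 12.05 on the B6 arrays and 11.23, 11.54, 11.28 and 11.55 on the NOD arrays, in the order fusion 1, fusion 2, ires 1, ires 2. The strains did not overlap. For 72 subunits of mitochondrial NADH dehydrogenase, cytochrome oxidase and ATP synthase, which carry electron transport and ATP production, 47 were lower (median -0.36). Their array medians were 9.18, 9.17, 9.07 and 9.38 in B6 and 8.5, 8.82, 8.57 and 8.78 in NOD. Of 72 tested mitochondrial ribosomal genes, 14 were lower and 1 higher (20.8% called, near the 18.8% of all genes, median -0.14).

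Replication-dependent histone genes, which are transcribed in S phase, gave 15 lower and 1 higher of 21 (median -0.7), and 7 of them, from H4c8 to H4c3, formed a stretch of adjacent genes. Their array medians were 8.11, 8.27, 7.66 and 8.08 in B6 and 7.41, 7.73, 7.67 and 7.54 in NOD, so ires B6 array 1 lay within the NOD range. Zinc finger genes with symbols starting in Zfp went the other way, with 50 of 254 higher and 4 lower (median 0.13). Of these genes 21.3% were called, near the 18.8% of all genes, of which 9.62% were higher and 9.14% lower. In Tconv the medians were -0.19 for ribosomal proteins, -0.1 for the mitochondrial subunits, -0.14 for histones and 0.12 for zinc finger genes, and 8 of 58, 8 of 72, 9 of 21 and 8 of 254 were called lower. In the same order, 1, 0, 2 and 32 were called higher in Tconv. Of all genes, 6.41% were called lower and 9.62% higher there. Median differences within fusion and ires Treg were -0.34 and -0.42 for ribosomal proteins and -0.68 and -0.64 for histones.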
